A study of Mus musculus with 15 samples.

Results

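Alveolar type 1 (AT1) cells were followed through 9 marker genes, Ager, Aqp5, Pdpn, Hopx, Rtkn2, Emp2, Akap5, Clic5 and Cav1, in microdissected lung lesions and normal lung cells. The members were all probe sets whose only gene symbol in the platform annotation was one of these 9. They came to 18 of the 45037 probe sets other than array controls, and to 9 of the 18193 genes tested. Expression was measured on 15 Affymetrix arrays of cells cut by laser capture from frozen lung sections of K-RasG12V knock-in mice, 3 months after infection with an adenovirus carrying Cre recombinase. The labelled groups were H1 hyperplastic lesions (3 arrays), H2 hyperplastic lesions (4 arrays) and normal lung cells (8 arrays). In each lesion, of about 500 cells, the resident K-RasG12V allele also expressed a colour marker by which its cells were recognised. Normal cells were captured from the same lung sections, so all groups share the knock-in genotype and the virus. The sources used here give no age, strain or number of animals, nor which arrays share an animal or how lesions were divided into H1 and H2. P-values over captured regions may therefore be too small or too large. They measure the spread between these samples.

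AT1 cells are the thin, flat cells that cover most of the alveolar surface and form the air side of the gas-exchange barrier. They arise from alveolar progenitors and, after injury, from alveolar type 2 (AT2) cells, the surfactant-making cells of the alveolus. Their typical genes encode membrane, caveola and cytoskeletal proteins. Several are also used by other lung cells: Cav1 by vessel lining and fibroblasts, and Pdpn by lymphatic vessels and the pleural lining.

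All values are log2 signals as deposited. Of several probe sets for a gene, the brightest on average was used. Differences are log2 differences ± limma's standard error (SE), and a gene was called at a Benjamini-Hochberg adjusted p under 0.05 over all genes. AT1 genes were detectable in this tissue. The mean signal of 8 of the 9 genes lay at or above the 92.4th percentile of all gene means, that of Ager at the 99.2th, and that of Rtkn2 at the 68.6th. Each array's spread was taken as the standard deviation (SD) of its gene values. It ranged from 1.31 to 1.49 in H1, from 1.52 to 1.78 in H2 and from 1.14 to 1.67 in normal cells.

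Aqp5 lay above the normal median in every lesion array, and Hopx and Cav1 lay below it, though none of the 3 was called as reported. For that reason the upstream stretches of these 3 members are shown. Each is the 250 bases before the annotated start, outside the gene itself, on the gene's strand (the outer of 2 annotated starts for Hopx and Cav1), from RefSeq (build GRCm38.p6): chr15:99590778-99591027 (plus strand) for Aqp5, chr5:77115124-77115373 (minus strand) for Hopx and chr6:17306085-17306334 (plus strand) for Cav1. Capitals mark the letters CTCAAG, bound by NKX2-1, a lung epithelial transcription factor, or their complement CTTGAG.
Aqp5: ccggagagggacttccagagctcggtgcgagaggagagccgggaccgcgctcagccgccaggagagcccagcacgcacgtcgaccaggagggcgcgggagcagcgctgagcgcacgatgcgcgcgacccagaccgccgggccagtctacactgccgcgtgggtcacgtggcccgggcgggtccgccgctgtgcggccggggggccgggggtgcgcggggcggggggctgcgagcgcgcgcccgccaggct
Hopx: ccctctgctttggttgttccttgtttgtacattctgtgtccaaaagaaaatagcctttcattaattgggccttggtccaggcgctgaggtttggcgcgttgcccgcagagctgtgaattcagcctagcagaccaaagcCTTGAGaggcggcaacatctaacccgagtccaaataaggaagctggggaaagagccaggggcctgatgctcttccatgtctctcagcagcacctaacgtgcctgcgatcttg
Cav1: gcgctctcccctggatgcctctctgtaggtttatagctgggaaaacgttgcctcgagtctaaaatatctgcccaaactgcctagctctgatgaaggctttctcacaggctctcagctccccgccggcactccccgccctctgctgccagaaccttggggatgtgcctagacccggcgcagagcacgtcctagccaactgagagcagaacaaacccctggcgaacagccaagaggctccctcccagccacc
The table held 10 promoters of 8 of the 9 genes, and none of Rtkn2, which also lay below the normal median in every lesion array. The NKX2-1 letters were found on either strand in 1 of the 10, that of Hopx, and in 13.3% of all 32851 promoter stretches of this length. The letters GGAATG, or CATTCC on the other strand, bound by the TEAD partners of the growth regulators YAP and TAZ, were in 0 of the 10 and in 12.6% of all. A match of letters is a description and not a binding site.

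**Figure D1:**
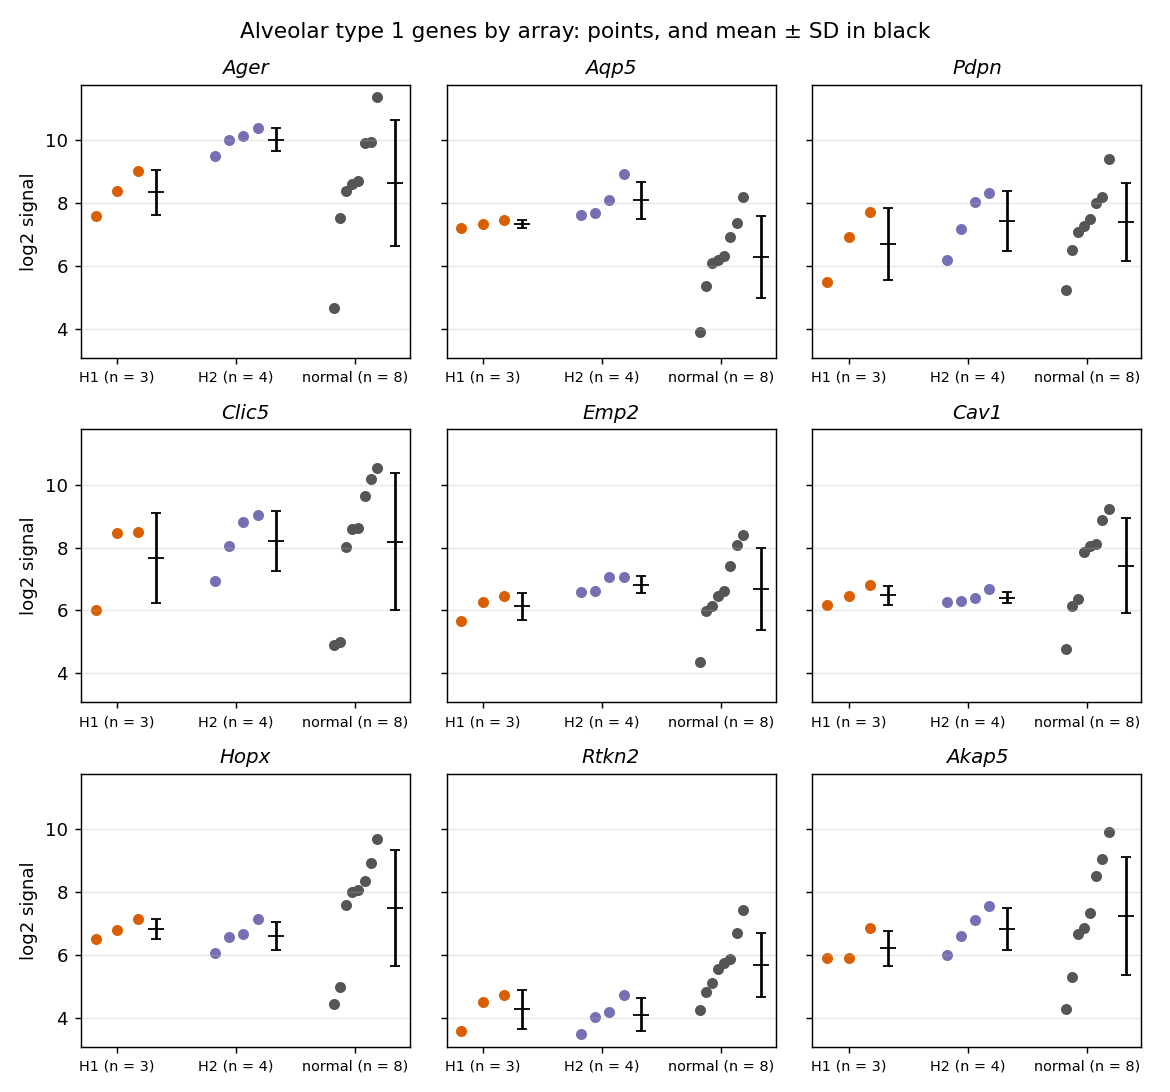
Log2 signal of the 9 alveolar type 1 genes on each array, in H1 lesions, H2 lesions and normal cells (points), with mean ± SD in black. Aqp5 sits above the normal median and Cav1, Hopx and Rtkn2 below it in all 7 lesion arrays, and the normal arrays spread most widely for every gene.

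Normal captures differed greatly from one another in AT1 signal. For Ager, which encodes RAGE, a multiligand receptor of the immunoglobulin family abundant on AT1 membranes, normal arrays ranged over 6.72 log2 units, a range above that of 99.9% of all genes. Clic5 (a chloride intracellular channel family protein tied to the actin cortex) ranged over 5.64, Akap5 (a scaffold for protein kinase A) over 5.63 and Hopx (an atypical homeodomain protein without DNA binding of its own) over 5.26. The smallest range was that of Rtkn2, at 3.18, still above that of 91.4% of genes, where the median gene ranged over 1.37. In normal replicates 2 and 8 all 9 genes lay below the normal median, and in normal replicates 3 and 6 all 9 lay above it.

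These AT1 differences between normal captures went with the spread of the whole array. Normal replicates 2 and 8 had the narrowest spread (1.14 and 1.20) and replicate 3 the widest (1.67). Over the 8 normal arrays Pearson's r between spread and signal ran from 0.74 (Aqp5) to 0.99 (Akap5), with exact two-sided permutation p from 2.48e-05, the smallest that 8 arrays can give, to 0.0333 (adjusted over the 9 relations, from 7.44e-05 to 0.0333). Spearman's rho ran from 0.57 (Aqp5, exact permutation p = 0.151, adjusted 0.151) to 1 (Pdpn, Emp2 and Akap5, exact permutation p = 4.96e-05, adjusted 0.000149). Without the 2 normal arrays farthest from the median spread, r ran from 0.69 to 0.98. Of all genes, 14.7% had an r above the 0.74 of Aqp5, so this is a relation that many genes share, and the spread is itself computed from them. Array medians were near alike (3.87 to 4.06). Genes of like brightness were not compared, so whether they also read higher on arrays of wider spread was not tested. Since many genes share the relation, the p-values do not set AT1 genes apart. Pairs of members moved together in normal cells, with r from 0.56 to 0.99 over 8 arrays (median 0.91 of 36 pairs), given as a description. Without normal replicate 2 the lowest was 0.08 and the median 0.86. Over the 7 lesion arrays r ran from -0.49 to 0.78, with a median of 0.34.

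**Figure D2:**
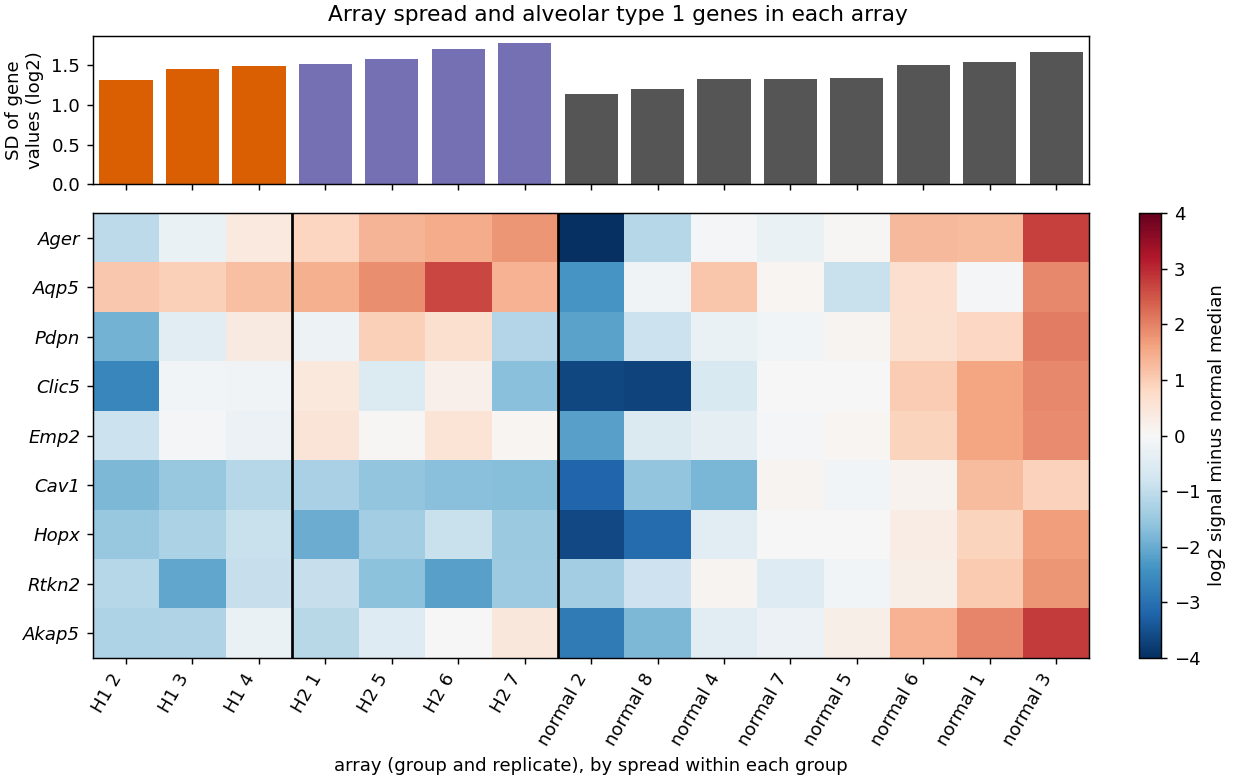
Upper panel, SD of gene values (log2) of each array; lower panel, log2 signal of each gene minus its normal median (colour). Arrays run from narrow to wide spread within H1, H2 and normal: in normal cells the colours turn from blue to red with spread, while in lesions Cav1, Hopx and Rtkn2 stay below 0 and Aqp5 above 0.

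Lesion captures were more alike. All 9 genes had a smaller SD over the 7 lesion arrays than over the 8 normal arrays, as did 58.3% of all genes. The ratio of the SDs was 0.15 for Cav1, 0.20 for Hopx, 0.35 for Akap5 and 0.37 for Emp2, and 0.83 at most, for Pdpn, with a median of 0.45 for the 9 and 0.91 for all genes. Cav1, the coat protein of caveolae, read between 6.18 and 6.81 in all 7 lesions, against 4.78 to 9.24 in normal cells.

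Lesions, H1 and H2 together, were set against normal cells to ask whether AT1 genes differ in early K-Ras-driven growth. None of the 9 members was called (limma), where 0.291% of all genes were, and 2 had an unadjusted p under 0.05, where 12.8% of all genes did. Those were Aqp5, the higher one, and Rtkn2, the lower one. In such bulk captures fewer AT1 cells and less AT1 RNA per cell cannot be told apart. Of the 9 differences, 2 were above 0 and 7 below, with a median of -0.28 beside -0.06 for all genes. Leaving out 1 array at a time, this median ran from -0.68 (without normal replicate 8) to 0.0085 (without normal replicate 3, with 5 above 0 and 4 below). It was -0.67 without normal replicate 2 and -0.0084 without H1 replicate 2. In the other settings it ran from -1.45 with array spread as a covariate to 0.19 without normal replicates 1 and 3.

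Aqp5, the water channel of the AT1 surface, read 7.33, 7.21 and 7.47 in H1 and 7.68, 8.10, 8.92 and 7.63 in H2, against 3.88, 6.25 and 8.19 (lowest, median and highest) in normal cells. All 7 lesions lay above the normal median, as for 5.47% of all genes, and 1 lay above every normal array. The difference was 1.47 ± 0.48 (95% interval 0.44 to 2.49, limma adjusted p = 0.218). Aqp5 has a single probe set on this array.

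Rtkn2 read 4.51, 3.56 and 4.73 in H1 and 4.72, 4.02, 3.46 and 4.18 in H2, against 4.24, 5.65 and 7.43 (lowest, median and highest) in normal cells. All 7 lesions lay below the normal median and 4 lay below every normal array. The difference was -1.51 ± 0.39 (95% interval -2.34 to -0.68, limma adjusted p = 0.108), ranked 223 of 18193 genes by p. The lesion mean of 4.17 was close to 3.99, the middle probe set mean on these arrays and thus near the background, and the size of the difference is not well determined. Rtkn2 too has a single probe set.

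Hopx and Cav1 were also below the normal median in every lesion, which with Rtkn2 makes 3 of the 9 members, beside 6.27% of all genes. Hopx read 6.51, 6.78 and 7.15 in H1 and 6.06, 6.65, 7.14 and 6.56 in H2, against 4.44, 8.04 and 9.70 (lowest, median and highest) in normal cells. Its difference was -0.81 ± 0.64 (95% interval -2.17 to 0.54, limma adjusted p = 0.631). Normal replicates 2 (4.44) and 8 (4.96) lay below all lesions, and the other 6 normal arrays, from 7.60 up, lay above all lesions. Cav1 read 6.18, 6.45 and 6.81 in H1 and 6.67, 6.40, 6.30 and 6.27 in H2, against 4.78, 7.96 and 9.24 in normal cells, a difference of -0.99 ± 0.53 (95% interval -2.10 to 0.12, limma adjusted p = 0.451). Here 2 normal arrays (4.78 and 6.14) lay below all lesions, 1 (6.37) lay within their range and 5 lay above all.

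For the other 5 members the groups overlapped broadly. Ager read 9.30 ± 1.02 (SD, n = 7) in lesions and 8.64 ± 2.00 (SD, n = 8) in normal cells, a difference of 0.66 ± 0.75, which turned to -0.78 with array spread as a covariate and lay between -0.19 and -0.00897 in 3 other settings listed in the closing section. Akap5 differed by -0.69 ± 0.67, and by 0.06 without normal replicates 1 and 3. Pdpn, the mucin-type membrane protein T1 alpha, differed by -0.28 ± 0.53, Clic5 by -0.21 ± 0.81 and Emp2, a small tetraspan membrane protein, by -0.15 ± 0.47. Without normal replicates 1 and 3 these 3 were 0.19, 0.51 and 0.37. None of the 5 had an adjusted p under 0.7 (limma, 0.707 to 0.937).

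H1 lesions were set against normal cells for the first lesion subtype. None of the 9 members was called by limma, beside 0.011% of all genes, and 1, Rtkn2, was lower at an unadjusted p under 0.05, beside 2.39% of all genes. Rtkn2 averaged 4.27 ± 0.62 (SD, n = 3) in H1 and 5.68 ± 1.02 (SD, n = 8) in normal cells, a difference of -1.41 ± 0.53 (limma adjusted p = 0.997). Of the 9 differences 8 were below 0, with a median of -0.69 beside -0.05 for all genes. Without H1 replicate 2 it was 6 below 0, with a median of -0.31, without normal replicate 3 the median was -0.38, and without normal replicate 8 it was -1.003. In the other settings the median ran from -1.57 without normal replicates 2 and 8 to -0.09 without normal replicates 1 and 3. In 6 of the 9 every H1 array lay below the normal median, beside 22.7% of all genes: Hopx, Rtkn2, Emp2, Akap5, Clic5 and Cav1. Akap5 differed by -1.03 ± 0.90, Cav1 by -0.95 ± 0.71, Pdpn by -0.69 ± 0.70, Hopx by -0.69 ± 0.86, Emp2 by -0.55 ± 0.62 and Clic5 by -0.53 ± 1.09. Aqp5 differed by 1.04 ± 0.63 and Ager by -0.29 ± 0.94. The intervals are wide: that of Ager, -2.28 to 1.69, holds changes of more than 1 log2 unit either way.

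H1 replicate 2, which had the narrowest spread of the lesions (1.31), and H1 replicate 3 each had 8 of the 9 genes below the normal median. Replicate 2 read 7.60 for Ager, 5.47 for Pdpn, 6.00 for Clic5 and 5.65 for Emp2, each the lowest of the 7 lesions. H1 replicates 3 and 4 read 8.50 and 8.47 for Clic5 and 6.92 and 7.73 for Pdpn. Without H1 replicate 2 the H1 difference from normal was 0.29 for Clic5, -0.08 for Pdpn and 0.08 for Ager (limma adjusted p from 0.99 to 0.995).

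H2 lesions were set against normal cells for the second subtype. None of the 9 members was called by limma, beside 3.38% of all genes. At an unadjusted p under 0.05 there was 1 higher (12.7% of all genes) and 1 lower (8.7%). Aqp5 averaged 8.08 ± 0.60 (SD, n = 4) in H2 and 6.29 ± 1.30 (SD, n = 8) in normal cells, a difference of 1.79 ± 0.57 (95% interval 0.58 to 3.00, limma adjusted p = 0.09). Rtkn2 averaged 4.10 ± 0.52 (SD, n = 4) in H2, a difference of -1.58 ± 0.48 (95% interval -2.59 to -0.57, limma adjusted p = 0.0774), and 3 of the 4 H2 arrays lay below every normal array. Single normal arrays decided whether these passed. Without normal replicate 2, Rtkn2 was called at -1.79 (limma adjusted p = 0.0424), beside 0.357% of all genes called lower. Without normal replicate 3, Aqp5 was called at 2.06 (adjusted p = 0.0249), beside 6.07% called higher.

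Ager read 9.52, 10.02, 10.12 and 10.40 in H2, against 4.65, 8.65 and 11.37 (lowest, median and highest) in normal cells. All 4 lay above the normal median, as they did for Aqp5 and Emp2, so for 3 of the 9 genes beside 18.7% of all genes. The difference for Ager was 1.38 ± 0.85 (95% interval -0.42 to 3.18, limma adjusted p = 0.363) and turned to -1.0003 with array spread as a covariate. Cav1 differed by -1.02 ± 0.64, Hopx by -0.90 ± 0.78 and Akap5 by -0.43 ± 0.81 (adjusted p from 0.373 to 0.798). Emp2 at 0.14 ± 0.56, Pdpn at 0.03 ± 0.63 and Clic5 at 0.03 ± 0.98 were near 0, and each changed sign under several settings. The median of the 9 differences was 0.03, beside -0.04 for all genes, and single arrays decided its sign. It was -0.44 without normal replicate 8, -0.43 without normal replicate 2 and 0.32 without normal replicate 3. In the other settings it ran from -2.33 with array spread as a covariate to 0.50 without normal replicates 1 and 3. With the 3′ to 5′ difference of Actb and of Gapdh as covariates it was -1.10 and -0.76. The Actb difference ran from -1.60 to -0.03 in normal cells, from -1.21 to -0.04 in H1 and from -0.29 to 0.25 in H2.

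**Figure D3:**
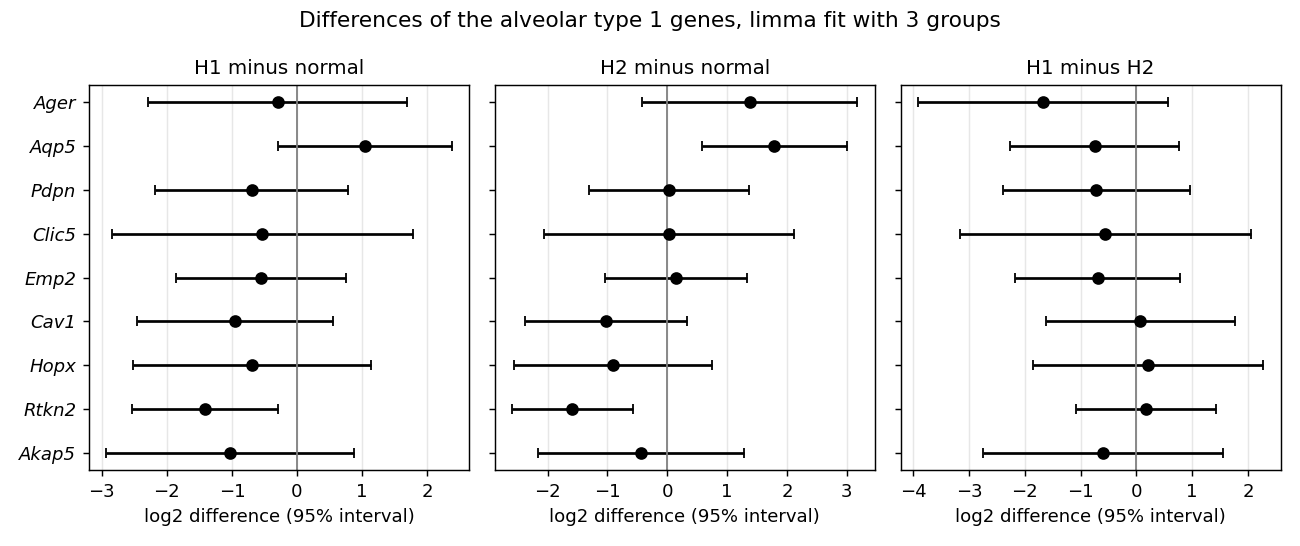
Log2 difference of each gene with its 95% interval (limma fit with 3 groups), for H1 minus normal, H2 minus normal and H1 minus H2. In H1 minus normal the interval of Rtkn2 lies below 0, in H2 minus normal that of Rtkn2 lies below 0 and that of Aqp5 above it, and all 9 intervals of H1 minus H2 include 0.

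H1 was set against H2 to ask whether AT1 genes tell the subtypes apart. None of the 9 was called by limma, beside 0.0055% of all genes, and 0 had an unadjusted p under 0.05, beside 12.3% of all genes. The 2 sets of arrays did not overlap for Ager, Aqp5 and Emp2, each lower in H1, which is 3 of 9 beside 18.2% of all genes. For Ager the 3 H1 arrays lay between 7.60 and 9.04 and the 4 H2 arrays between 9.52 and 10.40, a difference of -1.68 ± 1.06 (95% interval -3.92 to 0.57, limma adjusted p = 0.508). For Emp2 the H1 arrays lay between 5.65 and 6.45 and the H2 arrays between 6.57 and 7.07, a difference of -0.69 ± 0.70 (adjusted p = 0.686). For Aqp5 it was -0.75 ± 0.71 (adjusted p = 0.668). With array spread, wider in H2, as a covariate these differences were 0.37, 0.57 and 0.23. Cav1 (0.07 ± 0.80), Rtkn2 (0.17 ± 0.59) and Hopx (0.21 ± 0.97) differed least. Their intervals, from -1.62 to 1.76, -1.09 to 1.43 and -1.85 to 2.27, are too wide to show that the subtypes are alike. The fit shares its estimate of spread over all 3 groups, and normal arrays varied most. Cav1, for example, had an SD of 0.31 in H1, 0.18 in H2 and 1.52 in normal cells. The intervals and p-values of H1 against H2 thus rest in part on the spread of normal arrays.

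Several members had more than 1 probe set, and these were also tested alone over all 45037 probe sets. For lesions against normal 16 of the 18 were below 0, and 0 passed the adjusted threshold in any comparison (limma). At an unadjusted p under 0.05 there were 1 higher and 2 lower for lesions, beside 6.3% and 4.76% of all probe sets. For H1 there were 2 lower (2.21%), for H2 1 higher (9.89%) and 2 lower (8.99%), and for H1 against H2 there were 0. The second brightest probe set of Akap5 was the added lower one in lesions and in H2. It read 6.79, 5.63 and 6.53 in H1 and 4.63, 6.46, 6.79 and 6.24 in H2, against 5.90, 7.08 and 8.83 (lowest, median and highest) in normal cells. All 7 lesions lay below its normal median. Its difference was -0.93 ± 0.39 for lesions (limma adjusted p = 0.391) and -1.05 ± 0.47 for H2 (adjusted p = 0.24). The third Akap5 probe set differed by -0.39 ± 0.47 in lesions.

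The second Hopx probe set was lower in H1, at -0.83 ± 0.31 (limma adjusted p = 0.999), and differed by -0.20 ± 0.28 in H2. For H1 against H2 it differed by -0.62 ± 0.35 (limma adjusted p = 0.502), opposite in sign to the brightest Hopx probe set. It read 4.24 to 4.92 in H1 and 4.98 to 5.35 in H2. The second Ager probe set gave a smaller contrast, -0.54 ± 0.44 in H1 and 0.30 ± 0.40 in H2. The second and the third Emp2 probe sets differed by -0.74 ± 0.58 and -0.19 ± 0.32 in lesions. The 3 further Clic5 probe sets lay between -0.68 and -0.01. The lowest probe sets of Emp2 (mean 3.90) and Clic5 (mean 4.16) read near 3.99, the middle probe set mean.

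Array spread was then added to the fit, a choice made with earlier results known. With it, 2 members were lower and called for lesions against normal, beside 0.253% of all genes, namely Akap5 at -1.96 ± 0.35 (limma adjusted p = 0.0166) and Rtkn2 at -1.98 ± 0.37 (0.022). At an unadjusted p under 0.05 all 9 but Aqp5 were lower, which is 8 of 9 beside 6.67% of all genes. For H2 against normal 4 were lower and called, beside 0.539% of all genes: Akap5 at -2.86 ± 0.35 (adjusted p = 0.00118), Rtkn2 at -2.61 ± 0.45 (0.0117), Hopx at -2.98 ± 0.54 (0.0149) and Cav1 at -2.54 ± 0.54 (0.0369). Aqp5 was 0.64 ± 0.56 there (adjusted p = 0.684). For H1 against normal 0 were called by limma, beside 0.033% of all genes called lower, and 4 were lower at an unadjusted p under 0.05, beside 4.49%. Spread is computed from the same genes and was wider in H2 than in most normal arrays, and its part in the result was not tested. The fit gives a gene the same slope on spread in every group. Over the 7 lesion arrays r between spread and signal was 0.87 for Akap5, 0.18 for Hopx, -0.13 for Cav1 and -0.37 for Rtkn2. In normal cells it was 0.99, 0.91, 0.87 and 0.96. For Hopx, Cav1 and Rtkn2 the shared slope therefore need not hold in lesions.

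Removing normal arrays, chosen after seeing the data, moved the same genes. In normal replicates 2 and 8 all 9 members lay below the normal median. Leaving these arrays out therefore lowers the differences, and calls made that way are no separate support for lower AT1 genes. Without normal replicates 2 and 8, those of narrowest spread, Hopx was -1.75 ± 0.30 (limma adjusted p = 0.0313) and Rtkn2 -1.90 ± 0.35 (0.0436) for lesions against normal. Both were called, beside 0.0824% of all genes called lower. For H2 the same 2 genes were called, Hopx at -1.84 and Rtkn2 at -1.97, beside 0.297%. Cav1 was then -1.61 ± 0.38 (adjusted p = 0.114) and Akap5 -1.50 ± 0.49 (0.301). Without normal replicates 1 and 3, the arrays of widest spread, Rtkn2 was -1.05 ± 0.30 (adjusted p = 0.075), Aqp5 1.77 ± 0.47 (0.0598), Hopx -0.21 and Cav1 -0.45. For H2 this fit called Aqp5 (2.09, beside 9.84% of genes called higher) and Rtkn2 (-1.13, beside 4.41% called lower). With arrays weighted by quality, Rtkn2 was called for lesions (-1.46, beside 0.077%) and for H2 (-1.62, beside 3.37%), and Aqp5 for H2 (1.94, beside 8.72%). Aqp5 stayed above 0 and Rtkn2, Hopx and Cav1 below 0 in all 30 other settings of this comparison.

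**Figure D4:**
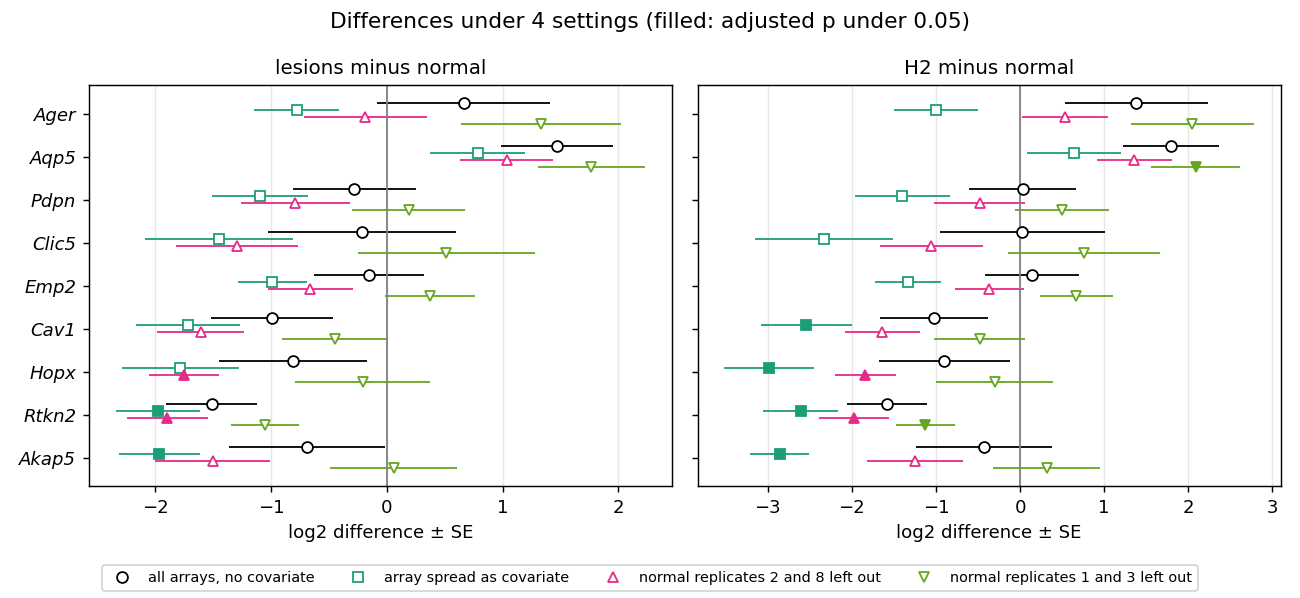
Log2 difference ± SE of each gene for lesions minus normal and H2 minus normal, with all arrays, with array spread as a covariate, and without the 2 narrowest or the 2 widest normal arrays; filled symbols have an adjusted p under 0.05. Ager, Pdpn, Clic5, Emp2 and Akap5 cross 0 between settings, and Rtkn2, Hopx and Cav1 stay below it.

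A wider AT1 list of 23 measured genes (25 listed), drawn from textbook markers, was split for lesions and for H2, and mostly lower in H1. For lesions against normal 9 differences were above 0 and 14 below (median -0.11), and limma called 0. At an unadjusted p under 0.05 there was 1 above 0 and 3 below, beside 12.8% of all genes in either direction. The lower ones were the matrix proteoglycan Spock2 (-0.98 ± 0.36), the P450 enzyme Cyp2b10 (-0.96 ± 0.37) and Pxdc1 (-1.05 ± 0.47), with limma adjusted p from 0.269 to 0.367. Egfl6, an EGF-like secreted protein, was the higher one at 1.47 ± 0.42. In H2 it rose by 1.94 ± 0.46 (limma adjusted p = 0.0337), the 1 gene of the list called there, beside 3.38% of all genes. For H1 against normal 18 of the 23 differences were below 0 (median -0.39), and for H2 against normal 11 were (median 0.11). For H1 against H2, 20 of the 23 were below 0 (median -0.30), where 45.0% of all genes were above 0. Limma called 0, with 1 at an unadjusted p under 0.05, beside 12.3% of all genes. These H1 comparisons share the H1 arrays. In H1 against H2 all 11 AT2 markers were also below 0 (median -0.61), so the direction was not particular to AT1 genes. Array spread was wider in H2, and with it as a covariate all 9 members were above 0 (median 1.05). Its part in the list was not tested.

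YAP, TAZ and TEAD factors steer AT1 identity. Of 13 such factors and targets 0 were called by limma in any comparison, and 0 had an unadjusted p under 0.05 for lesions, beside 12.8% of all genes. Tead1 differed by -0.59 ± 0.38 and Axl by 0.54 ± 0.41. Of 10 genes typical of cells between the AT2 and AT1 states, 5 differences were above 0 and 5 below. The keratin Krt8 rose in H2 by 2.83 ± 0.48 (limma adjusted p = 0.00753), the 1 gene of these 10 called there, beside 3.38% of all genes. The stress protein Nupr1 was 1.75 ± 0.41 in lesions (adjusted p = 0.0765). The claudin Cldn4 (-0.33 ± 0.16) and the integrin Itgb6 (-0.41 ± 0.18) read near the background.

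Partners and relatives of the members were mixed. Beside them, 12.8% of all genes had an unadjusted p under 0.05 for lesions, and limma called 3.38% of all genes in H2. Of 7 genes of the caveola coat besides Cav1, Cavin2 differed by -1.26 ± 0.62 in lesions and Cavin3 by 0.37 ± 0.16, and 0 were called by limma in any comparison (for lesions, Cavin3 alone had an unadjusted p under 0.05). Of 5 RAGE ligands measured, S100a4 differed by 0.68 ± 0.33 and S100a9 by -0.38 ± 0.22, and 0 were called (0 at an unadjusted p under 0.05). Among 12 paralogs, Emp1, a relative of Emp2, rose in H2 by 0.97 ± 0.25 (limma adjusted p = 0.0438), while Pmp22, of the same family, differed by -1.44 ± 0.56 in H2 (0.156).

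Some markers of other cell types also differed between these groups, and what they contribute to the AT1 values was not tested. For lesions, 12.8% of all genes had an unadjusted p under 0.05 and 0.291% were called by limma. For H2, 3.38% of all genes were called. All 11 measured AT2 markers were above 0 in lesions (median 1.67, 0 called by limma and 7 at an unadjusted p under 0.05). In H2 1 of them was called, the lipid transporter Abca3, which rose by 2.35 ± 0.52 (limma adjusted p = 0.0249). The AT2 list had array means from 7.76 to 9.11 in H1, 8.42 to 9.64 in H2 and 5.09 to 9.42 in normal cells. Endothelial markers, which share Cav1, were below 0 for 11 of 12 (median -0.65, 0 called and 6 lower at an unadjusted p under 0.05), with array means from 4.55 to 4.99 in H1, 4.43 to 5.00 in H2 and 4.41 to 6.74 in normal cells. Lymphatic markers, which share Pdpn, had 3 of 4 below 0, among them Lyve1 at -0.87 ± 0.26 (limma adjusted p = 0.169). The array mean of the mesothelial markers lay between 4.25 and 4.38 in H1, 4.09 and 4.46 in H2 and 4.01 and 4.50 in normal cells, near the background. Fibroblast markers were split, with 4 of 8 below 0. The integrin Itga8 fell by 2.46 on the log2 scale (limma adjusted p = 0.0267), and the collagen gene Col1a2 rose in H2 by 1.57 ± 0.37 (0.0341). Of 5 club cell markers 3 were below 0 in lesions (median -0.05) and 4 in H2 (median -0.17). In H2 Aldh1a1 differed by -2.11 ± 0.75 (limma adjusted p = 0.1245), while Cyp2f2 rose by 1.57 ± 0.36 (0.0308). For lesions 4 of 6 macrophage markers were above 0.

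The genes most like Ager in pattern over the 15 arrays were Ctnna1 (Pearson's r = 0.97, Spearman's rho = 0.94), Ifitm3 (0.97 and 0.93), Sh3glb1 (0.97 and 0.94), Mcl1 (0.97 and 0.93) and Slc44a2 (0.96 and 0.91). For the mean standardized level of the 9 members they were Samhd1 (0.94 and 0.91), Ahnak (0.94 and 0.97), Clic4 (0.94 and 0.83), Clip1 (0.94 and 0.78) and Ehd4 (0.93 and 0.88). These are descriptions over arrays that share groups and array spread. Without the 2 arrays farthest from the median, r lay between 0.89 and 0.94 for Ager and between 0.83 and 0.94 for the mean of the members.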

How the data were processed

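RNA of captured cells was extracted with the PicoPure kit, amplified with the WT-Ovation One-Direct system and hybridised to Affymetrix arrays, per the labels' protocols and the series' design text. The authors deposited log2 signals per probe set, and the submitters' processing notes name affy and RMA (background correction, quantile normalization and probe summary), with no version. RMA equalises probe intensities before summary, and the spread of the resulting probe set values still varied between arrays. Of 45101 probe sets, 64 controls were left out. Gene names came from the platform annotation: 34945 probe sets carried 1 symbol, 932 several and 9160 none. Of the members' probe sets, 0 carried a second symbol. Gene IDs of 34741 matched RefSeq (GRCm38.p6).

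Tests used limma 3.58.1 (R 4.3.3; lmFit and eBayes) on all 18193 genes, 1 probe set per gene, with 2 groups for lesions against normal and 3 groups otherwise. Analysis also used Python 3.11.15 and scipy 1.17.1. On simulated data with known differences of 2 log2 units, 98% were called for lesions, 74% for H1, 74% for H2 against normal and 66% for H1 against H2. These rates are over genes of all kinds, and the members varied more than most, with an SD in normal cells from 1.02 to 2.18 where the median gene had 0.46, so they do not carry over to the members. For arrays, their number limits the precision. The 9 members and 13 other gene lists (119 of 129 genes measured) were chosen with earlier results of these data known. All members were to be named, up to 4 genes with the lowest p of each other list, any called gene, and the 5 genes most like Ager or the members' mean. Not every gene so chosen is printed.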

Additional observations from a re-analysis of the deposited data

Results flagged for a closer look

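Among 36 sets of values (18 probe sets, in normal cells and in H2), 2 had an array that stood apart from the rest by Dixon's test, where chance gives about 1.8. The second brightest Emp2 probe set read 4.36 in H2 replicate 1, against 5.88 to 6.13 in the other H2 arrays. The third Emp2 probe set read 5.45 in normal replicate 3, against 3.38 to 4.22 in the other normal arrays. Neither is the probe set that stood for Emp2, and the third reads near the background.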

How the results depend on the processing

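No member was called in any comparison as reported. For lesions against normal, 1 was called with array weights, 2 with array spread as a covariate and 2 without the 2 narrowest normal arrays. For H2 against normal it was 2 with array weights, 4 with the spread covariate, 2 without the 2 narrowest and 2 without the 2 widest normal arrays, and 0 to 1 with 1 array left out (1 without normal replicate 2, Rtkn2, or 3, Aqp5). In the other settings, and for H1 against normal and H1 against H2 in all 30, 0 were called. Leaving out the 2 narrowest or 2 widest normal arrays was chosen after seeing the data. The cause of these changes was not tested.

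No member was called as reported. Akap5, called with the spread covariate for lesions and for H2 against normal, turned its sign in both comparisons in another setting. Aqp5, Hopx, Rtkn2 and Cav1, each called in some other setting for H2 against normal, turned theirs for H1 against H2 only. The differences that turned their sign follow by comparison. For lesions against normal they were Ager at -0.78 with the spread covariate, -0.00897 and -0.0671 with the 3′ to 5′ difference of Actb and of Gapdh as covariates and -0.19 without the 2 narrowest normal arrays, and Pdpn (0.19), Emp2 (0.37), Akap5 (0.059) and Clic5 (0.51) without the 2 widest. For H1 against normal they were Ager (0.37) and Clic5 (0.19) without the 2 widest, and Ager at 0.13 with the replicate block. For H2 against normal, the spread covariate gave Ager -1.0003, Pdpn -1.40, Emp2 -1.33 and Clic5 -2.33. For Pdpn, Emp2 and Clic5 the Actb covariate gave -0.87, -0.67 and -1.10, the Gapdh covariate -0.35, -0.44 and -0.76, repeated quantile normalization -0.53, -0.22 and -0.62, and the fit without the 2 narrowest -0.48, -0.36 and -1.05. The mean of a gene's probe sets gave Emp2 -0.0949 and Clic5 -0.36, the most variable probe set Emp2 -0.28, array weights Clic5 -0.023, and the fit without the 2 widest Akap5 0.31. For H1 against H2, the spread covariate gave Ager 0.37, Aqp5 0.23, Pdpn 0.50, Emp2 0.57, Akap5 1.49 and Clic5 1.46. There the Actb covariate gave Pdpn 0.27, Emp2 0.21, Akap5 0.56 and Clic5 0.69, the Gapdh covariate Akap5 0.63 and Clic5 0.21, repeated quantile normalization Clic5 0.12, and the mean of probe sets Hopx -0.21.

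With 1 array left out, signs turned within these ranges. For lesions against normal they were -0.59 to 0.0085 (Pdpn), -0.49 to 0.093 (Emp2) and -0.68 to 0.12 (Clic5), and for H1 against normal -0.86 to 0.096 (Ager) and -1.003 to 0.29 (Clic5). For H2 against normal they were -0.28 to 0.44 (Pdpn), -0.19 to 0.39 (Emp2) and -0.44 to 0.46 (Clic5), and for H1 against H2 -0.061 to 0.52 (Rtkn2), -0.99 to 0.27 (Clic5) and -0.096 to 0.22 (Cav1).

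Replicate numbers are shared between lesions and normal cells, but 3 of 7 same-numbered pairs had deviations that correlated above 0.1 (range -0.35 to 0.53), so the numbers were not taken as pairs. With the replicate block 0 members were called in each comparison. For H2 against normal 7 of the 9 differences were then below 0 and 2 above, with Cav1 at -1.91 ± 0.54 (limma adjusted p = 0.186). For H1 against H2, 6 were above 0 and 3 below, with Cav1 at 1.79 ± 0.82 (limma adjusted p = 0.85). That block gave Pdpn -0.31, Emp2 -0.32 and Clic5 -1.05 for H2 against normal, and Emp2 0.15, Akap5 0.40 and Clic5 0.86 for H1 against H2. Over all genes the counts moved widely, from 51 higher and 2 lower for lesions to 90 and 3 with the block and 40 and 46 with the spread covariate. For H2 they moved from 525 and 90 to 34 and 5 with the block and 57 and 98 with the spread covariate. With 1 array left out, 8 to 229 genes were higher and 0 to 9 lower for lesions, and 102 to 1104 higher and 16 to 274 lower for H2, so the shares of all genes set beside the members move as widely. Signal near the background limits what can be said of Rtkn2 in lesions.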
